A study of Mus musculus with 9 samples.

Results

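Mouse neural tumour cells that carry an Nf1 deletion, an shp53 construct and CDK4 were compared with the wild-type neural stem cells (NSC) of the series. RNA sequencing counts of 6 of the series' 9 libraries enter this comparison, 3 cultures a side, over all genes. They were chosen by their labels alone: the NF1 group holds the NSC-derived tumour cells of genotype shp53, Nf1-/-, CDK4 (NF1 1, NF1 2 and NF1 3), and the NSC group holds primary NSC of the subventricular zone of wild type (NSC 1, NSC 3 and NSC 5). Cells of all groups were grown in standard NSC medium for at most 10 passages. The remaining 3 libraries, LTR 1 to 3, are tumour cells labelled lgT/Ras, and they share the estimate of the spread between cultures. The age and strain of the mice, the way the tumour cells were obtained and whether NF1 1, 2 and 3 were transformed separately are not stated by the labels, so p-values measure the spread between these cultures. Cells with a single alteration were not analysed here, so a difference belongs to the whole genotype.

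The subventricular zone lines the lateral ventricles of the adult brain, and its stem cells give rise to neurons and glia. Nf1 encodes neurofibromin, a GTPase-activating protein that returns Ras to its inactive form, so its loss is known to favour signalling from receptor tyrosine kinases through Ras to the kinases MEK and ERK. An shp53 construct targets the mRNA of p53, the transcription factor that halts the cell cycle after damage, and CDK4 is the kinase with which D-type cyclins inactivate the RB protein. These pathways are altered together in many gliomas.

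Levels are CPM, a gene's counts relative to the total of its library, scaled by TMM, a factor that sets the bulk of the genes equal between libraries. Differences are on the log2 scale, NF1 minus NSC, with the standard error of the fit. Total counts ran from 31181787 (NF1 3) to 57231024 (NSC 3), and 3 counts correspond to 0.0541 to 0.102 CPM in these 6 libraries. Every NSC library was read from lane L001 and every NF1 library from lane L007 according to the column names, and effects of lane and of genotype cannot be told apart. The genes of the labels were read first. Nf1 (ENSMUSG00000020716, chromosome 11, 79339693 to 79581612) measured 109.6, 82.5 and 114 CPM in NSC 1, 3 and 5 and 59, 97.2 and 40.1 CPM in NF1 1, 2 and 3 (log2 difference -0.64 ± 0.35, adjusted p = 0.205). NF1 2 lay within the NSC range and the 2 other libraries below it, and the counts cover all exons, whichever were deleted. Trp53 measured 107, 114 and 101 CPM in NSC against 217, 151 and 221 CPM in the libraries labelled NF1, all of them above NSC (log2 difference 0.87 ± 0.20, adjusted p = 0.0141, not called without NSC 1, NSC 5, NF1 1 or NF1 3). Cdk4, which shares exon sequence with Tspan31 on the other strand, measured 334, 456 and 325 CPM in NSC against 795, 393 and 1124 CPM in NF1, again with NF1 2 in the NSC range. The mRNA levels thus check the label of no library in full. Trp53, the target of the shp53 construct, lay above NSC in all 3, and Nf1 and Cdk4 lay in the NSC range in NF1 2. NF1 stands below for the libraries labelled so.

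The largest decreases included Acta2, Thy1 and Col1a2, and the largest increases included Areg, Flt3 and Mgst2. Of 15696 genes tested, 3631 (23.1%) passed an adjusted p of 0.05, of which 1578 (10.1%) were higher and 2053 (13.1%) lower in NF1. At least a 2-fold difference was met by 1113 of the higher (7.09%) and 1824 of the lower genes (11.6%). All 3 NF1 libraries lay above all 3 NSC libraries in 2934 genes (18.7%) and below them in 3713 (23.7%). The median log2 difference over all tested genes was 0.0039. The higher genes numbered 598 without NSC 1, 658 without NSC 5, 813 without NF1 1, 905 without NF1 3 and 2898 without NF1 2, and the lower genes 1154, 1199, 1085, 1468 and 4002 in the same order. Without NF1 2 these were 17.7% higher and 24.5% lower of 16343 genes tested. Counts of the gene lists below move with such shifts of all genes, and those without NF1 2 are to be read beside these shares. A call held in each of the 9 fits that leave out 1 library for 522 higher and 971 lower genes. The genes named as largest changes come from these and were required to show no overlap between NF1 and NSC libraries.

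The 12 largest increases on that basis were Calcb, Klra4, Rnf183, Flt3, Grem1, Areg, Mgst2, Chrna1, Barhl2, Sgk2, Aqp1 and Stmn4. Areg (ENSMUSG00000029378, chromosome 5, 91139599 to 91148432) encodes amphiregulin, a ligand of the EGF receptor, and measured 0.291, 0.253 and 0.402 CPM in NSC against 34.4, 36.3 and 53.8 CPM in NF1 (log2 difference 7.04 ± 0.47, adjusted p = 0.000163). Its 3 NF1 levels were close to each other and far above every NSC library. Rnf183 (ENSMUSG00000063851, chromosome 4, 62427540 to 62435252), a RING-type ubiquitin ligase gene, had 2 counts over the NSC libraries and 1192 over NF1, a ratio of 818 after scaling with an exact 95% counting interval from 226 to 6764. Flt3, a receptor tyrosine kinase best known from blood progenitors, rose from 0.0265, 0.162 and 0 to 47.6, 32 and 26.8 CPM (log2 difference 8.87 ± 0.79, adjusted p = 0.000468, 11.10 without NSC 3). Mgst2, a glutathione transferase of membranes, rose from 0.0794, 0.108 and 0.188 to 15.4, 11 and 30.3 CPM (log2 difference 7.21 ± 0.57, adjusted p = 0.000255). For these genes the highest NF1 library was less than 3 times the lowest, and NF1 2 was no exception.

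The NF1 libraries differed more for Aqp1, Barhl2, Stmn4, Sgk2 and Grem1 than for Areg. Aqp1, a water channel, measured 1.3, 0.433 and 2.44 CPM in NSC against 137, 35.8 and 132 CPM in NF1 (log2 difference 6.21 ± 0.92, adjusted p = 0.00275, 6.90 without NSC 5). Barhl2, a homeobox gene of neuronal subtypes, measured 0.0529, 0.668 and 0.241 against 71, 7.97 and 44.2 CPM (log2 difference 6.92 ± 0.99, adjusted p = 0.00241, 8.22 without NSC 3 and 6.28 without NF1 1). NF1 2 was the lowest NF1 library in both, and above NSC as the ranking required. Calcb, which encodes a calcitonin gene-related peptide, had 1 count over NSC and 29.8, 6.56 and 12.1 CPM in NF1, a ratio of 2180 with a counting interval from 391 to 86163. Its fitted log2 difference of 10.48 became 12.15 without NSC 1 and 9.69 without NF1 1. Klra4 belongs to a family of near-identical receptor genes, so its counts are uncertain. Stmn4, a microtubule regulator of neurons, and Grem1 went the other way, with NF1 2 highest: Stmn4 rose from 0.106, 0.217 and 0.241 to 5.48, 42.4 and 16.6 CPM (log2 difference 6.80 ± 1.07, adjusted p = 0.00346, 5.84 without NF1 2). Sgk2, a kinase gene of the SGK family, reached 11.6, 2.56 and 10.5 CPM in NF1 (log2 difference 6.56 ± 1.02, adjusted p = 0.00333, 9.01 without NSC 3), lowest in NF1 2. Chrna1, a subunit of the muscle acetylcholine receptor, was more even among the NF1 libraries, at 23, 15.5 and 18.9 CPM (log2 difference 6.70 ± 0.69, adjusted p = 0.00098, 8.49 without NSC 3).

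By absolute level, increases were ranked among genes called in each of the 9 fits, at least 2-fold higher and without overlap. The 5 largest were in osteopontin, in proteins of the endoplasmic reticulum and in a zinc transporter. Spp1 (ENSMUSG00000029304, chromosome 5, 104435118 to 104441050), the gene of the secreted phosphoprotein osteopontin, measured 236, 345 and 209 CPM in NSC against 3405, 9375 and 3644 CPM in NF1 (log2 difference 4.38 ± 0.47, adjusted p = 0.00102, 3.75 without NF1 2). NF1 2 thus held the highest level. Of the chaperones of the endoplasmic reticulum, Hspa5 rose from 691, 827 and 824 to 1734, 3771 and 2117 CPM (log2 difference 1.70 ± 0.33, adjusted p = 0.00784). Hsp90b1 rose from 779, 702 and 881 to 2081, 2715 and 2120 CPM (log2 difference 1.55 ± 0.21, adjusted p = 0.0022). The disulfide isomerase gene Pdia3 rose from 771, 715 and 830.4 to 1521, 1961 and 1760 CPM (log2 difference 1.18 ± 0.25, adjusted p = 0.0102). Slc30a4, a zinc transporter, rose from 91.9, 213 and 88.6 to 1460, 849 and 1413 CPM (log2 difference 3.24 ± 0.42, adjusted p = 0.00176, 3.89 without NSC 3).

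**Figure D1:**
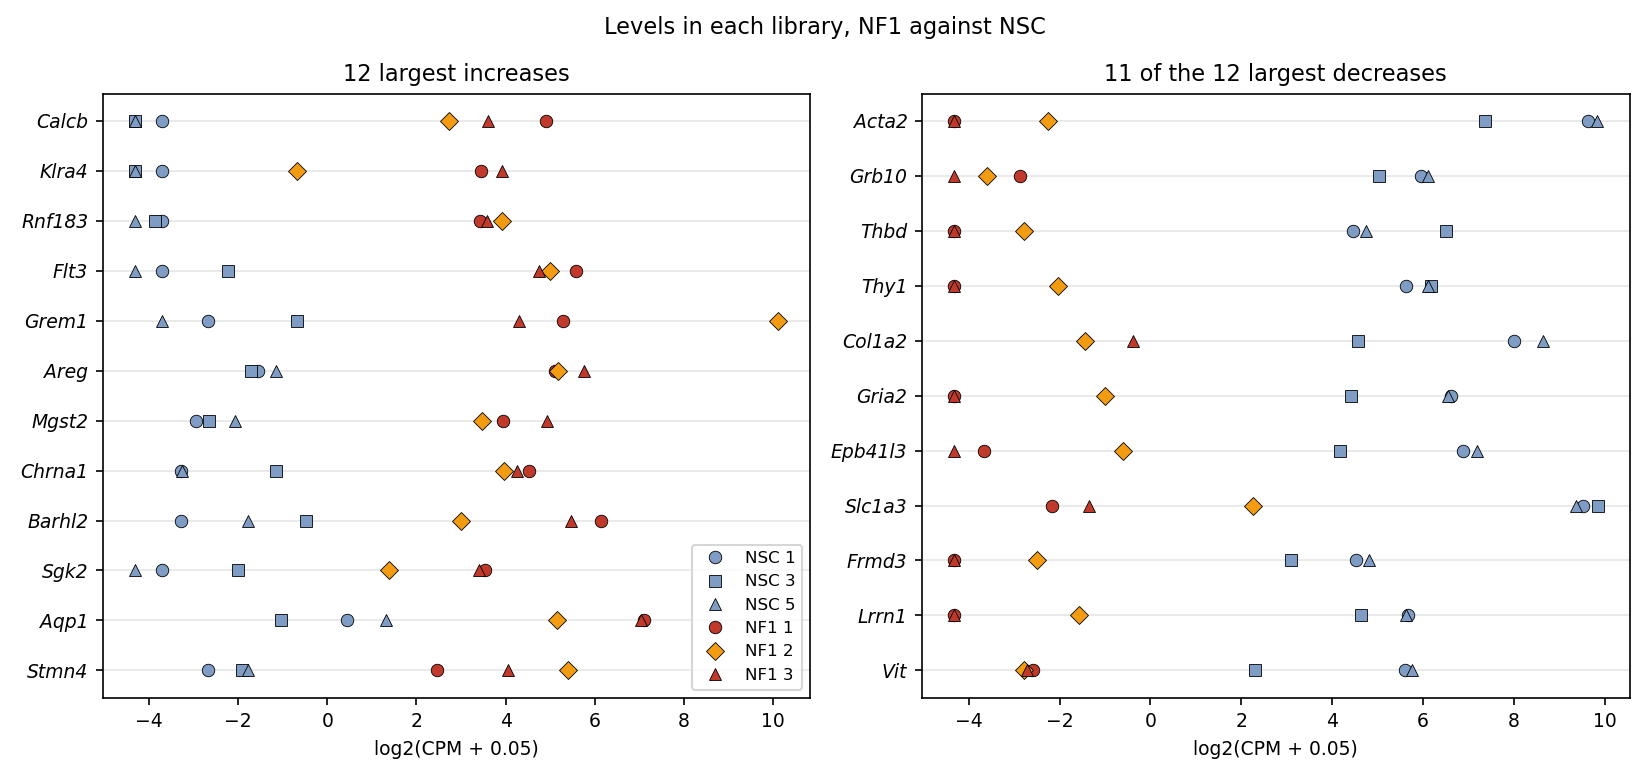
Levels of the 12 largest increases (left) and of 11 of the 12 largest decreases (right) in each NSC and NF1 library, as log2(CPM + 0.05), 1 point a library. Blue marks NSC, red NF1 1 and NF1 3, and orange NF1 2. Both groups separate in every row because only genes without overlap were ranked. In the decreases NF1 2 lies beside the other NF1 libraries or between them and NSC.

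Among the 12 largest decreases were Acta2, Grb10, Thbd, Thy1, Col1a2, Gria2, Epb41l3, Slc1a3, Frmd3, Lrrn1 and Vit. Acta2 (ENSMUSG00000035783, chromosome 19, 34241090 to 34255590), smooth muscle actin, measured 796, 165 and 918 CPM in NSC against 0, 0.16 and 0 CPM in NF1 (log2 difference -13.44 ± 1.55, adjusted p = 0.00127, -12.83 without NF1 1 and -17.45 without NF1 2). Thy1, a surface glycoprotein of neurons and fibroblasts, measured 49.3, 72.6 and 68.8 against 0, 0.192 and 0 CPM (log2 difference -9.89 ± 0.90, adjusted p = 0.00121, -9.28 without NF1 1 and -14.15 without NF1 2). Gria2, a subunit of AMPA glutamate receptors, measured 98.6, 21.4 and 94.1 against 0, 0.448 and 0 CPM (log2 difference -8.88 ± 1.30, adjusted p = 0.00451, -8.26 without NF1 1 and -14.32 without NF1 2). In these 3 genes no read was counted in NF1 1 or NF1 3, where counts of 0 allow up to 0.0869 and 0.102 CPM, and NF1 2 held a trace. Thbd, thrombomodulin, had 3 counts over the NF1 libraries against 6912 over NSC, a ratio of 1678 with a counting interval from 574 to 8140. NSC 3 held 5075 of the 6912 counts, and the fitted log2 difference of Thbd, -10.38, became -9.36 without NSC 3, -9.79 without NF1 1 and -13.72 without NF1 2.

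Among genes called in each of the 9 fits, at least 2-fold lower and without overlap, decreases were also ranked by absolute level. The 5 largest were in the desaturase genes Scd2 and Scd1 and in Pea15a, Igfbp2 and Mest. Scd2 fell from 5389, 6080 and 4845 to 2294, 3052 and 2196 CPM (log2 difference -1.11 ± 0.23, adjusted p = 0.01). Scd1 fell from 1688, 1845 and 1573 to 593, 763 and 512 CPM (log2 difference -1.45 ± 0.21, adjusted p = 0.00266). The 2 desaturases are close paralogs, and the division of reads between them is uncertain. Pea15a, which encodes a protein that holds ERK in the cytoplasm, fell from 3797, 2037 and 3645 to 284, 602 and 298 CPM (log2 difference -3.00 ± 0.37, adjusted p = 0.00165). Igfbp2, an IGF-binding protein of stem cells, fell from 2100, 2208 and 2246 to 82.9, 284 and 58.6 CPM (log2 difference -3.95 ± 0.67, adjusted p = 0.00463, -4.94 without NF1 2). NF1 2 kept the highest NF1 level of Scd2, Scd1, Pea15a and Igfbp2. That it still lay under all NSC libraries follows from the ranking, which took only genes without overlap.

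Culture NF1 2 stood between NSC and the 2 other NF1 cultures for most genes that moved in those 2. In NF1 1 and NF1 3, 964 genes lay at least 2-fold above the NSC range. NF1 2 was above that range too in 791 of them (82%), inside it in 120 (12.4%) and below it in 53. On a scale where the NSC mean is 0 and the mean of NF1 1 and NF1 3 is 1, its median position was 0.65 (quartiles 0.31 and 0.98). Another 2633 genes lay at least 2-fold below the NSC range in NF1 1 and NF1 3, and NF1 2 was below it in 2154 (81.8%), inside it in 322 and above it in 157, with a median position of 0.44. In those genes the median level was 33.8% of the NSC mean in NF1 2, 8.1% in NF1 1 and 6.24% in NF1 3. Since genes chosen from 2 libraries can lie nearer to NSC in the library left out of the choice, the same position was read for NF1 1 and NF1 3, which was decided after seeing the data. Over genes chosen from the 2 other NF1 libraries, the median position of NF1 1 was 0.97 above the NSC range (582 genes) and 1.12 below it (1435 genes). That of NF1 3 was 0.94 (608 genes) and 1.24 (1426 genes). Both of these choices include NF1 2, so the genes had to move in NF1 2 too, and NF1 2 enters the value 1 of the scale. These positions therefore cannot measure how far the choice of genes alone moved NF1 2 towards NSC.

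**Figure D2:**
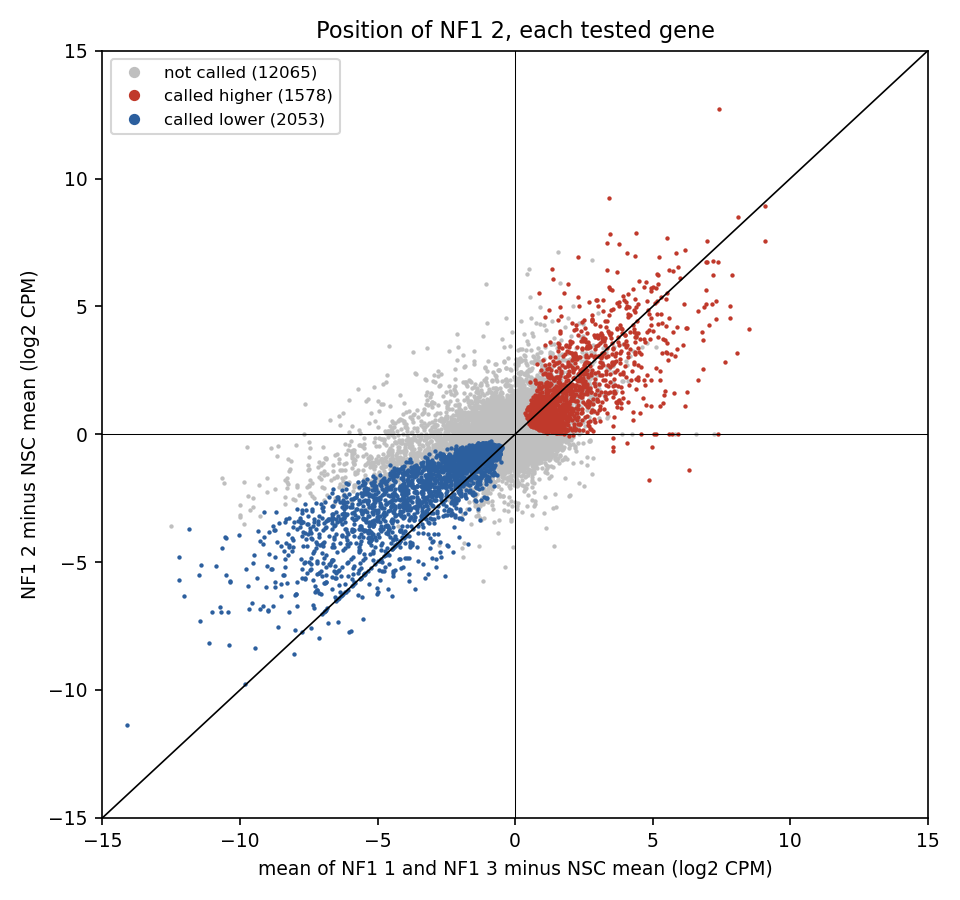
Difference from the NSC mean on the log2 CPM scale for each tested gene, in NF1 2 (vertical) against the mean of NF1 1 and NF1 3 (horizontal), coloured by the call of all 3 NF1 cultures against NSC. The diagonal marks equal differences, and the 2053 genes called lower lie mostly above it, that is nearer to NSC in NF1 2.

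Genes at the NSC level in NF1 2 were found in both directions. Pde3b, a cyclic nucleotide phosphodiesterase, measured 12.5, 16.9 and 14.8 CPM in NSC against 168, 13.1 and 177 CPM in NF1 (log2 difference 3.02 ± 0.74, adjusted p = 0.0196, not called without NSC 1, NSC 5, NF1 1 or NF1 3). Pcp4, a calmodulin regulator, measured 3.04, 0.162 and 3.94 against 103, 0.48 and 107 CPM (log2 difference 4.89 ± 1.53, adjusted p = 0.0467, 5.49 without NF1 2, not called without NSC 1, NSC 3, NSC 5, LTR 1, LTR 2, LTR 3, NF1 1 or NF1 3). Of the 6 libraries, NF1 1 and NF1 3 were the high ones for both genes. Tox2, a nuclear HMG-box gene, measured 20.8, 25.9 and 16.9 CPM in NSC against 0.348, 22.3 and 0.239 CPM in NF1, and Pcdh17, a protocadherin, 18, 29.7 and 23.3 against 0.551, 19 and 0 CPM. Mgll, the lipase that degrades the endocannabinoid 2-AG, measured 44.5, 20.3 and 46.1 against 0.985, 28.9 and 0.273 CPM. Tox2, Pcdh17 and Mgll were under 1 CPM in NF1 1 and NF1 3 and inside the NSC range in NF1 2, and they did not pass the test of all 3 cultures.

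A further 101 genes, 54 of them with at least 8 CPM in NF1 2, lay 4-fold or more above each of the other 5 libraries there, against 4 genes in NF1 1, 6 in NF1 3 and 45 in NSC 3. Grem1 (ENSMUSG00000074934, chromosome 2, 113746164 to 113758646), a secreted BMP antagonist, measured 0.106, 0.578 and 0.0268 CPM in NSC against 39, 1115 and 19.7 CPM in NF1 (log2 difference 10.54 ± 1.92, adjusted p = 0.00605, 12.45 without NSC 3 and 6.81 without NF1 2). Ptpn5, a tyrosine phosphatase of neurons that acts on ERK, reached 2.61, 72.3 and 1.67 CPM in NF1 (log2 difference 4.69 ± 1.40, adjusted p = 0.0393, 5.62 without NSC 3 and 1.13 without NF1 2, not called without NSC 1, NSC 3, NSC 5, LTR 1, LTR 3 or NF1 2). Nt5e, the ectonucleotidase CD73, reached 5.01, 102 and 3.17 CPM (log2 difference 4.02 ± 1.18, adjusted p = 0.0375, 0.87 without NF1 2, not called without NSC 1, NSC 3, NSC 5, LTR 1, LTR 3 or NF1 2). Sprr1a, a cornified envelope gene induced in injured neurons, reached 5.42, 250.4 and 5.12 CPM against 0.397, 13.6 and 0.939 in NSC, and the protease gene Mmp10 0.898, 24.3 and 0.171 CPM. Sprr1a did not pass. Mmp10 passed (fitted log2 difference 8.77, 8.12 without NSC 3, 11.22 without NSC 5 and 4.83 without NF1 2) but lost the call without NSC 1 or NSC 5, whereas the call of Grem1 held in each of the 9 fits. Genes 4-fold or more below each of the other 5 libraries numbered 27 in NF1 2, 66 in NF1 1, 220 in NF1 3 and 203 in NSC 3. With at least 8 CPM in each of the other 5, the order differed: 6 in NF1 2, 0 in NF1 1, 3 in NF1 3 and 60 in NSC 3. One of the 27 was Egln3, a hypoxia-induced prolyl hydroxylase, at 87.8, 6.37 and 60.1 CPM in NF1 against 46, 57.8 and 33.7 in NSC.

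Receptor tyrosine kinases and their ligands, the inputs to Ras, moved in both directions. Of 52 members tested, 9 passed as higher, 14 passed as lower and 29 missed the threshold (17.3% higher and 26.9% lower, against 10.1% and 13.1% of all genes), with a median log2 difference of -1.06. In fits without 1 library, the higher count was 5 without NSC 5 and the lower count was 27 without NF1 2. Egfr (ENSMUSG00000020122, chromosome 11, 16752203 to 16918158) encodes the receptor shared by these ligands and measured 188, 210.4 and 174 CPM in NSC against 2.23, 5.31 and 1.84 CPM in NF1 (log2 difference -5.93 ± 0.44, adjusted p = 0.000203, -6.53 without NF1 2). The receptor fell in the same libraries in which its ligand genes rose: beside Areg, Btc (betacellulin), which binds the same receptor, rose from 1.01, 1.28 and 0.402 to 18.4, 26.1 and 16.3 CPM (log2 difference 4.49 ± 0.47, adjusted p = 0.001). Hbegf, another ligand of that receptor, measured 202, 305 and 199 against 171, 375 and 184 CPM (adjusted p = 0.932). Tgfa measured 11.9, 10.6 and 10.03 against 2.93, 8.26 and 2.59 CPM (adjusted p = 0.105), and neither passed.

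The sequence before the start site is shown for Areg and Egfr, as the ligand and receptor that moved in opposite directions, and for Mgst2, 1 of 2 genes among the largest increases with an AP-1 motif. Each is the 250 bases before the RefSeq start (GRCm38.p6), read 5′ to 3′ on the gene's strand. Capitals mark a cyclic AMP response element (TGACGTCA) in Areg, whose first base lies at -61 from the start, and an AP-1 motif (TGACTCA or TGAGTCA) in Mgst2 at -52.
Areg, chr5:91139349-91139598 (+): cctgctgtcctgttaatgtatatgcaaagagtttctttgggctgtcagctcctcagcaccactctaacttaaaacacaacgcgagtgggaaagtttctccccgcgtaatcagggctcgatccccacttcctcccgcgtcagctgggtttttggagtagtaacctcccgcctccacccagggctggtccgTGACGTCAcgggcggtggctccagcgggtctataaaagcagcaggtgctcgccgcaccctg
Egfr, chr11:16751953-16752202 (+): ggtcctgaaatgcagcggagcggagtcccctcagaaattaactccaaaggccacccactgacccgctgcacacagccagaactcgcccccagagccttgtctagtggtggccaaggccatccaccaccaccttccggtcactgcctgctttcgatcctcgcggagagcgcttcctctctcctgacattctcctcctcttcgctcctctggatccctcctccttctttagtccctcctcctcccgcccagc
Mgst2, chr3:51660929-51661178 (+): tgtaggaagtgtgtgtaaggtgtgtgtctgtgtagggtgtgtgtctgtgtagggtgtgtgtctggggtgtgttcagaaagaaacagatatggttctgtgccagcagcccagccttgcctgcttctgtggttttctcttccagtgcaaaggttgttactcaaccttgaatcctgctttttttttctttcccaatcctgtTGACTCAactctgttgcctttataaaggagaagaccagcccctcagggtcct
Neither motif, nor the CArG box, occurs in the Egfr window. Among 9 of the 12 largest increases with a promoter in the table, 2 held an AP-1 motif (Mgst2 and Chrna1) and 1 the cyclic AMP motif, and among 8 of the 12 largest decreases none held any of the 3. Of all 27025 promoters, 4.43% hold the AP-1 motif, 1.62% the cyclic AMP motif and 1.40% the CArG box. A match describes letters and not binding.

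Other receptors of growth factors moved in both directions. Of 25 receptors of the list tested, 4 passed as higher and 9, Egfr included, as lower. Fgfr1 fell from 326, 226 and 315 to 93, 149 and 68.7 CPM (log2 difference -1.48 ± 0.28, adjusted p = 0.00737). Igf1r, the IGF1 receptor, fell from 172, 109 and 178 to 58.2, 68.4 and 45.5 CPM (log2 difference -1.42 ± 0.24, adjusted p = 0.00469). Pdgfrb, a receptor for PDGF, fell from 13.1, 2.67 and 15 to 0.319, 0.352 and 0.546 CPM (log2 difference -4.65 ± 0.82, adjusted p = 0.00544), while Pdgfra measured 12.3, 3.65 and 9.22 against 6.2, 15.8 and 4.03 CPM and did not pass (adjusted p = 0.958). Met, the receptor for hepatocyte growth factor, went the other way, from 47.5, 67.3 and 64.1 to 244, 187 and 171 CPM (log2 difference 1.75 ± 0.22, adjusted p = 0.00161), and its ligand Hgf fell from 3.18, 2.15 and 2.39 CPM to 3 counts over the NF1 libraries, a ratio of 79.6 with a counting interval from 27.0 to 388 (fitted log2 difference -6.21, -7.00 without NF1 1). Ntrk2, the receptor for BDNF, measured 387, 361 and 311 CPM in NSC against 0.029, 29 and 0.0341 CPM in NF1, and with NF1 2 far above the 2 other cultures it did not pass (adjusted p = 0.0824).

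Genes of the Ras cycle and ERK cascade were called at about the share of all genes. Of 27 tested, 3 passed as higher, 2 passed as lower and 22 missed the threshold (11.1% higher and 7.41% lower), with a median of -0.14. The higher members were 1 Ras gene and 2 GTPase activators, and the lower members 1 GTPase activator and 1 exchange factor. On leaving libraries out, the higher count was 0 without NSC 1 or NF1 1, 1 without NSC 5 or NF1 3 and 5 without LTR 2 or NF1 2 and the lower count was 1 without NSC 1 or NSC 5, 4 without LTR 2, 5 without NSC 3 and 10 without NF1 2. Rasgrf1, a calcium-responsive activator of Ras, fell from 7.36, 1.84 and 8.66 to 0, 0.16 and 0.0341 CPM (log2 difference -6.46 ± 1.25, adjusted p = 0.00753, -5.86 without NF1 1 and -8.25 without NF1 2) and was the one member whose call held without any single library. Rasa3, a GTPase activator for Ras, measured 192, 160.4 and 184 against 71.3, 118 and 53.3 CPM (log2 difference -1.14 ± 0.27, adjusted p = 0.0165, not called without NSC 1, NSC 5 or NF1 1). Nras measured 219, 202 and 217 against 198, 189 and 217 CPM (adjusted p = 0.736). The groups overlap for Nras.

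Genes known to be induced by ERK moved unevenly. Of 28 tested, 8 passed as higher, 4 passed as lower and 16 missed the threshold (28.6% higher and 14.3% lower), with a median of 0.20. Fosl1, an AP-1 subunit, rose from 16.2, 29.5 and 14.1 to 115, 118 and 103 CPM (log2 difference 2.49 ± 0.32, adjusted p = 0.00172). Dusp5, a phosphatase of nuclear ERK, rose from 17.6, 19.2 and 20.8 to 89, 114 and 81.4 CPM (log2 difference 2.30 ± 0.31, adjusted p = 0.00206). Hmga2, a chromatin protein of fetal and tumour cells, rose from 117, 203 and 95.6 to 687, 748 and 658 CPM (log2 difference 2.33 ± 0.31, adjusted p = 0.00196). Myc rose from 37.5, 34.7 and 37.3 to 71.9, 56.8 and 103 CPM (log2 difference 1.08 ± 0.22, adjusted p = 0.01). For all 4 genes every NF1 library, NF1 2 included, lay above every NSC library. The feedback genes Dusp6, Spry2, Spry4 and Spred1 did not pass, with Dusp6 at 173, 247 and 173 CPM in NSC against 195, 142 and 176 CPM in NF1 (adjusted p = 0.496). Fos fell (log2 difference -5.80 ± 1.06, adjusted p = 0.00607, -3.64 without NSC 3 and -6.49 without NF1 2), but its NSC levels were 36.1, 337 and 26 CPM, high in NSC 3, against 1.74, 4.23 and 1.2 CPM in NF1. Single libraries mattered, with the higher count at 5 without NSC 5 and the lower count at 2 without NF1 1 or NF1 3.

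Among cyclin D, CDK inhibitor and RB genes, of 14 tested, 2 passed as higher, 3 passed as lower and 9 missed the threshold. These shares were 14.3% higher and 21.4% lower, against 10.1% and 13.1% of all genes. Among fits lacking 1 library, the higher count was 4 without NF1 2. Cdkn2a (ENSMUSG00000044303, chromosome 4, 89274471 to 89294653), the locus of the CDK4 inhibitor p16INK4A and of ARF, rose from 59.95, 53.8 and 55 to 269.8, 167 and 379.8 CPM (log2 difference 2.28 ± 0.38, adjusted p = 0.00447). The neighbouring inhibitor gene Cdkn2b rose from 43.2, 46.1 and 45.9 to 119, 94.8 and 161 CPM (log2 difference 1.47 ± 0.25, adjusted p = 0.00451). Of the cyclins that bind CDK4, Ccnd3 fell from 103, 109 and 107 to 49.1, 51.5 and 47.1 CPM (log2 difference -1.11 ± 0.17, adjusted p = 0.00275), and Ccnd2 measured 2022, 2527 and 1827 against 111, 891 and 148 CPM (log2 difference -2.47 ± 0.70, adjusted p = 0.0322, -4.02 without NF1 2, not called without NSC 1, NSC 3, NSC 5, NF1 1 or NF1 3). Cdk6, the sister kinase of CDK4, fell from 158, 75.1 and 182 to 11.7, 23.4 and 10.1 CPM (log2 difference -3.20 ± 0.42, adjusted p = 0.00184). Ccnd1 measured 2135, 3057 and 2080 against 1195, 2259 and 880 CPM and did not pass (adjusted p = 0.166).

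Genes of S phase and of mitosis split the NF1 cultures. Summed over the 30 S phase genes the level was 3034, 3970 and 3205 CPM in NSC 1, 3 and 5 and 5213, 2034 and 5008 CPM in NF1 1, 2 and 3, and over the 30 mitosis genes 3407, 4137 and 4149 CPM in NSC 1, 3 and 5 and 6864, 2211 and 6467 CPM in NF1 1, 2 and 3. NF1 1 and NF1 3 were above and NF1 2 below every NSC library in both sums. With all 3 cultures, 1 passed as higher, 0 passed as lower and 29 missed the threshold of the S phase genes (0.41 in the median), and 1 passed as higher, 0 passed as lower and 29 missed the threshold of the mitosis genes (0.46). Each list thus had 3.33% higher and 0% lower, against 10.1% and 13.1% of all genes. Without NF1 2, the higher genes numbered 22 and 19, in a fit that called 17.7% of all genes higher. E2f1, which activates genes for DNA replication, held its call in each of the 9 fits and rose from 42.2, 41.9 and 41.6 to 116, 66.7 and 100.3 CPM (log2 difference 1.17 ± 0.22, adjusted p = 0.00652). The single mitosis gene called, Anln, was not called in 7 of the 9 fits without 1 library. Cdc20, an activator of the anaphase-promoting complex, measured 118, 162 and 147 CPM in NSC against 215, 68.2 and 216 CPM in NF1 (adjusted p = 0.739). The proliferation marker Mki67 measured 275, 222 and 339 against 238, 120.3 and 160.2 CPM (adjusted p = 0.134).

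Of 30 p53 target genes, 2 passed as higher, 6 passed as lower and 22 missed the threshold (6.67% higher and 20% lower), with a median of -0.79. With 1 library left out, the lower count was 3 without NF1 1 and 16 without NF1 2. The death receptor gene Fas fell from 25.1, 12.5 and 26.9 to 0.377, 1.09 and 0.41 CPM (log2 difference -5.10 ± 0.56, adjusted p = 0.00107, -5.75 without NF1 2). Zmat3 fell from 205, 306 and 205 to 45.3, 103 and 38.8 CPM (log2 difference -1.94 ± 0.38, adjusted p = 0.008). Sesn1 fell from 28.6, 24.3 and 28.1 to 12.6, 12.9 and 12.7 CPM (log2 difference -1.08 ± 0.22, adjusted p = 0.00871). Plk3 rose from 10.8, 15.1 and 9.68 to 64.6, 79.4 and 71.2 CPM (log2 difference 2.60 ± 0.22, adjusted p = 0.000336). The stress gene Gadd45a rose from 8.63, 12.4 and 10.2 to 22, 71.6 and 40.1 CPM (log2 difference 2.10 ± 0.42, adjusted p = 0.00849). Cdkn1a, the inhibitor p21, measured 237, 574 and 262 CPM in NSC against 65.8, 189 and 42.6 CPM in NF1, with the NF1 2 level nearest to NSC (log2 difference -1.85 ± 0.54, adjusted p = 0.0372, -2.71 without NF1 2, not called without NSC 1, NSC 3, NSC 5, LTR 1, LTR 3, NF1 1 or NF1 3). Summed over the list, NF1 2 was at 2461 CPM and NSC 1, the lowest NSC library, at 2514, while NF1 1 and NF1 3 were at 1242 and 1158.

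Lineage markers of neural stem cells and glia were lower more often than higher. Of 23 neural stem cell markers, 2 passed as higher, 9 passed as lower and 12 missed the threshold (8.7% higher and 39.1% lower), with a median of -1.89. In fits without 1 library, the higher count was 0 without NSC 1, NSC 5 or NF1 1 and 1 without NF1 3 and the lower count was 16 without NF1 2. Slc1a3, which takes up glutamate in glia, fell from 734, 920.5 and 660 to 0.174, 4.77 and 0.341 CPM (log2 difference -8.77 ± 1.21, adjusted p = 0.0022, -11.54 without NF1 2). Nfia, a gliogenic transcription factor, fell from 301, 211 and 297 to 6.26, 27.8 and 5.22 CPM (log2 difference -4.36 ± 0.63, adjusted p = 0.00261, -5.54 without NF1 2). Msi1, an RNA-binding protein, fell from 125, 147 and 95.9 to 21.8, 29 and 14.5 CPM (log2 difference -2.50 ± 0.32, adjusted p = 0.00176). Nfib fell from 503, 546 and 480.2 to 138, 178 and 130.1 CPM (log2 difference -1.78 ± 0.20, adjusted p = 0.00122). Sox2 measured 358, 307 and 350.5 CPM in NSC against 331, 259 and 284 CPM in NF1 and did not pass (adjusted p = 0.469), nor did the intermediate filament gene Vim, at 7408, 6135 and 7443 against 10708, 10039 and 10373 CPM (adjusted p = 0.173).

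Some stem cell markers were near absent in NF1 1 and NF1 3 and present in NF1 2, and were not called. Fabp7, a fatty acid binding protein of radial glia, measured 2796, 4295 and 2364 CPM in NSC against 4.96, 343 and 1.74 CPM in NF1 (adjusted p = 0.0719). Ptprz1, a receptor phosphatase, measured 1486, 1881 and 1319 against 6.03, 387 and 0.956 CPM (adjusted p = 0.143). The transcription factor gene Sox1 measured 178, 115 and 169 against 1.45, 20.8 and 0 CPM (adjusted p = 0.0534). Nestin (Nes) was highest of all in NF1 2, at 675, 2433 and 426 CPM in NF1 against 1495, 1378 and 1571 CPM in NSC (adjusted p = 0.694).

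Glial markers were lower in NF1, with NF1 2 nearest to NSC in their sums. Of 16 astrocyte markers 0 passed as higher, 10 passed as lower and 6 missed the threshold (62.5% lower). On leaving libraries out, the lower count was 6 without NSC 5 or NF1 1 and 16 without NF1 2. Summed, they measured 4179, 4706 and 3813 CPM in NSC 1, 3 and 5 and 565, 1978 and 622 CPM in NF1 1, 2 and 3. Sparcl1 fell from 128, 163 and 131 to 0.0869, 1.09 and 0.0341 CPM (log2 difference -8.44 ± 1.12, adjusted p = 0.00196, -11.05 without NF1 2). Aldoc, the brain aldolase, fell from 241, 252 and 233 to 18.7, 43.7 and 16.3 CPM (log2 difference -3.21 ± 0.37, adjusted p = 0.00122). Clu (clusterin) fell from 295, 216 and 266 to 7.16, 28.3 and 5.56 CPM (log2 difference -4.24 ± 0.78, adjusted p = 0.00635, -5.33 without NF1 2). The intermediate filament gene Gfap measured 153, 86.5 and 128 against 1.33, 22.3 and 0.341 CPM (adjusted p = 0.0506). The oligodendrocyte lineage gave 14 tested markers, of which 0 passed as higher, 9 passed as lower and 5 missed the threshold (64.3% lower). Single libraries mattered, with the lower count at 5 without NSC 1 or NF1 1. Sox8 fell from 153, 96.8 and 138 to 19.7, 26.3 and 10.7 CPM (log2 difference -2.77 ± 0.38, adjusted p = 0.00221). The proteoglycan gene Cspg4 fell from 29.6, 24.5 and 33 to 4.17, 8.77 and 4.57 CPM (log2 difference -2.31 ± 0.38, adjusted p = 0.00419). Nkx2-2 fell from 34.9, 23.7 and 31.9 to 0.493, 2.91 and 0.478 CPM (log2 difference -4.54 ± 0.71, adjusted p = 0.00333, -5.94 without NF1 2). In the summed level of both lists, NF1 2 lay between NF1 1 and NF1 3 on one side and NSC on the other.

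Neuronal markers were lower in part, but 2 neurofilament genes rose. Of 15 tested, 2 passed as higher, 7 passed as lower and 6 missed the threshold (13.3% higher and 46.7% lower, -0.53 in the median). Among fits lacking 1 library, the higher count was 1 without NSC 1, NSC 5 or NF1 1 and the lower count was 2 without NF1 1 and 3 without NSC 1, NSC 5 or NF1 3. Nefl, the light neurofilament chain, rose from 6.04, 40.7 and 3.89 to 709, 915 and 508 CPM (log2 difference 5.39 ± 0.92, adjusted p = 0.00471, 7.24 without NSC 3). Nefm, the medium chain, rose from 17.9, 132 and 13.2 to 461, 680.5 and 226 CPM (log2 difference 3.06 ± 0.87, adjusted p = 0.0327, 4.94 without NSC 3, not called without NSC 1, NSC 5 or NF1 1), and the 2 annotated genes share exon sequence on opposite strands. Map2, a microtubule protein of dendrites, fell from 179, 261 and 182 to 0.782, 18.5 and 1.06 CPM (log2 difference -4.94 ± 1.17, adjusted p = 0.0168, -7.81 without NF1 2). Elavl4 fell from 2.57, 6.44 and 3.54 to 0.493, 0.864 and 1.13 CPM (log2 difference -2.34 ± 0.50, adjusted p = 0.011). Of 6 ependymal markers 0 passed as higher, 3 passed as lower and 3 missed the threshold (50% lower). With 1 library left out, the lower count was 5 without LTR 2 and 6 without NF1 2. Foxj1, the regulator of motile cilia, fell from 206, 99.9 and 189 to 0.493, 5.63 and 0.239 CPM (log2 difference -6.28 ± 1.04, adjusted p = 0.00424, -8.77 without NF1 2). Of 9 neural crest and Schwann cell markers 1 passed as higher, 1 passed as lower and 7 missed the threshold. That is 11.1% in each direction, near the 10.1% and 13.1% of all genes. In fits without 1 library, the lower count was 3 without NF1 2. Tfap2a, a transcription factor of the neural crest, rose from 1.08, 0.722 and 0.295 to 18.1, 40.3 and 16.5 CPM (log2 difference 5.15 ± 0.59, adjusted p = 0.00122), and Pmp22, a myelin protein gene, fell from 124, 124 and 136 to 17.3, 16.1 and 18.4 CPM (log2 difference -2.89 ± 0.41, adjusted p = 0.00236).

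**Figure D3:**
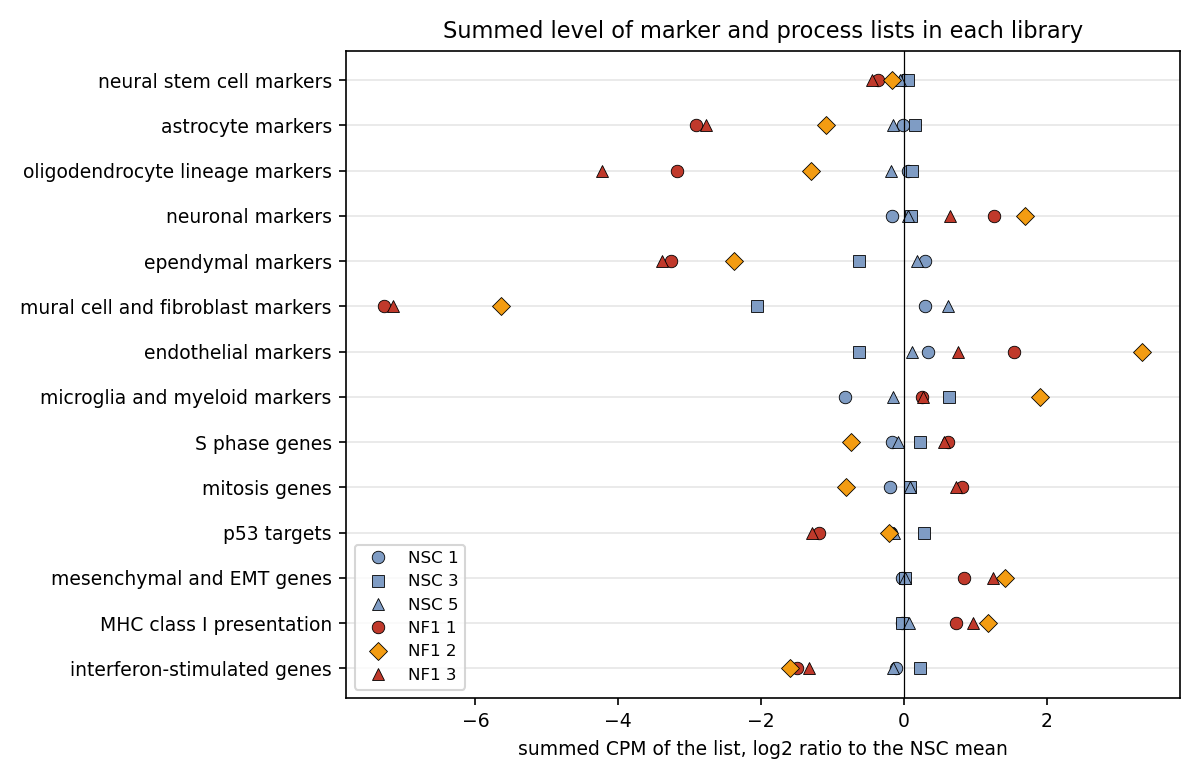
Summed CPM of marker and process lists in each library, as log2 ratio to the mean of the 3 NSC libraries, 1 point a library. Glial and mural lists lie left of 0 in all NF1 libraries, with NF1 2 nearest to NSC, and the S phase and mitosis sums lie right of 0 in NF1 1 and NF1 3 and left of it in NF1 2.

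Markers of other cell types were read as a check on what the cultures held. Of 9 mural cell and fibroblast markers 1 passed as higher, 6 passed as lower and 2 missed the threshold (11.1% higher and 66.7% lower). Their summed level was 2159, 421 and 2683 CPM in NSC 1, 3 and 5 and 11.3, 35 and 12.3 CPM in NF1 1, 2 and 3. The higher member, Des, stayed under 1 CPM. Its call was lost without NSC 1, NSC 3, LTR 1, LTR 2, LTR 3, NF1 1 or NF1 3. Tagln, a contractile protein gene, fell from 469.7, 95.6 and 594 to 0.753, 2.5 and 0.41 CPM (log2 difference -8.30 ± 1.06, adjusted p = 0.00174, -9.34 without NF1 2). Col1a2, a type I collagen gene, fell from 258, 23.9 and 397 to 0.319, 0.32 and 0.717 CPM (log2 difference -8.97 ± 1.09, adjusted p = 0.00146, -8.29 without NSC 5). These genes also differed among the NSC cultures, with NSC 3 lowest, and every NF1 library was lower still. The pericyte gene Vtn was at 0 in all 6 libraries, and Rgs5, counted in too few libraries to pass the filter, measured 0.291, 0.217 and 0.509 CPM in NSC against 0.261, 38.4 and 0.239 CPM in NF1. In bulk RNA, fewer cells of a type and less RNA per cell cannot be told apart, and the part of such cells in the differences was not tested.

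Microglial genes were at low levels in all 6 libraries, and of the endothelial genes Flt1 was the abundant one in NF1. Of 16 microglia and myeloid markers 5 could be tested, and 2 passed as higher, 2 passed as lower and 1 missed the threshold (40% in each direction). On leaving libraries out, the higher count was 0 without NSC 1 or NSC 5 and 1 without NSC 3, NF1 1 or NF1 3 and the lower count was 1 without NSC 1, NSC 3, NSC 5, LTR 1, LTR 2, LTR 3, NF1 1 or NF1 3. Their sum was 3.65, 9.98 and 5.79 CPM in NSC 1, 3 and 5 and 7.68, 24.2 and 7.78 CPM in NF1 1, 2 and 3, and Cx3cr1, Trem2, Tyrobp, C1qa, C1qb and C1qc were at 0 in all NF1 libraries. Of 8 endothelial markers 2 passed as higher, 2 passed as lower and 4 missed the threshold (25% in each direction). Single libraries mattered, with the higher count at 1 without NSC 1 and the lower count at 1 without NSC 1, NSC 3, NSC 5, LTR 1, LTR 2, LTR 3, NF1 1 or NF1 3. Cldn5 was at 0 in all 6 libraries, while Flt1, a VEGF receptor, rose from 4.26, 6.62 and 2.36 to 42.6, 155 and 23.3 CPM (log2 difference 4.06 ± 0.70, adjusted p = 0.00492, 2.90 without NF1 2). Flt1 made up most of the summed endothelial level of NF1 2, which was 165 CPM.

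Mesenchymal genes rose more often than they fell. Of 24 tested, 8 passed as higher, 5 passed as lower and 11 missed the threshold (33.3% higher and 20.8% lower), with a median of 0.70. Among fits lacking 1 library, the lower count was 3 without NSC 1, NSC 5 or NF1 1 and 8 without NF1 2. Beside Spp1, Timp1, an inhibitor of metalloproteases, rose from 29.2, 20.7 and 37.5 to 239.6, 422 and 399 CPM (log2 difference 3.60 ± 0.44, adjusted p = 0.00146). The transcription factor gene Twist2 had 3 counts over NSC and 704 over NF1, a ratio of 322 with a counting interval from 109.8 to 1566 (fitted log2 difference 8.19, 10.98 without NSC 3), while Zeb1 fell from 260.4, 273 and 224 to 63.1, 103 and 52.5 CPM (log2 difference -1.79 ± 0.26, adjusted p = 0.00269). Transcription factors of the list thus moved in opposite directions. Cd44, a receptor for hyaluronan, measured 497, 423 and 471 against 451, 588 and 434 CPM and did not pass (adjusted p = 0.783).

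Matrix, integrin and protease genes were lower in NF1 more often than higher. Of 47 tested, 6 passed as higher, 20 passed as lower and 21 missed the threshold (12.8% higher and 42.6% lower), with a median of -1.27. With 1 library left out, the higher count was 3 without NSC 1. Mmp2, a gelatinase, fell from 45.9, 16.4 and 74.7 to 0.145, 0.16 and 0.102 CPM (log2 difference -8.35 ± 0.77, adjusted p = 0.000509). Lamc1, a laminin chain, fell from 488, 386 and 488 to 127, 127 and 98.3 CPM (log2 difference -1.95 ± 0.24, adjusted p = 0.00146). Itgb5, an integrin subunit, fell from 272, 244 and 277 to 104, 84.7 and 94.1 CPM (log2 difference -1.49 ± 0.18, adjusted p = 0.00132). Plau (ENSMUSG00000021822, chromosome 14, 20836660 to 20843385), the urokinase plasminogen activator, rose from 3.02, 2.54 and 4.1 to 56, 99.1 and 56 CPM (log2 difference 4.45 ± 0.50, adjusted p = 0.00116). Lamb1 rose from 183, 131 and 167 to 607, 716 and 387 CPM (log2 difference 1.83 ± 0.26, adjusted p = 0.00236). Itga3 rose from 91.7, 59.5 and 106 to 268, 233 and 176 CPM (log2 difference 1.40 ± 0.25, adjusted p = 0.00607). Within the laminin chains Lamb1 and Lamc1 thus differed in direction. Fibronectin (Fn1) measured 681, 185 and 822 against 338, 520.2 and 242 CPM and did not pass (adjusted p = 0.401).

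Guidance genes of the semaphorin, slit and netrin families were also lower more often than higher. Of 42 tested, 4 passed as higher, 20 passed as lower and 18 missed the threshold (9.52% higher and 47.6% lower), with a median of -1.36. In fits without 1 library, the higher count was 1 without NSC 1, NSC 5 or NF1 1 and the lower count was 10 without NF1 1, 11 without NSC 1 and 12 without NSC 5. Sema5b, a transmembrane semaphorin, fell from 158, 76.8 and 158 to 0.435, 1.15 and 0.137 CPM (log2 difference -7.82 ± 0.69, adjusted p = 0.000468, -8.77 without NF1 2). Nrp1, a coreceptor of semaphorins, fell from 48.4, 58 and 56.3 to 19.5, 24.9 and 14.3 CPM (log2 difference -1.47 ± 0.25, adjusted p = 0.00461). The related receptor gene Nrp2 rose from 11.1, 4.1 and 9.36 to 128, 411 and 50.5 CPM (log2 difference 4.59 ± 0.74, adjusted p = 0.00382, 3.46 without NF1 2), highest in NF1 2. Of 19 Eph receptors and ephrins 4 passed as higher, 6 passed as lower and 9 missed the threshold (21.1% higher and 31.6% lower). On leaving libraries out, the higher count was 1 without NSC 1 or NSC 5 and the lower count was 2 without NSC 1, NSC 5, NF1 1 or NF1 3. Ephb2 fell from 107, 176 and 99.2 to 14.6, 30.2 and 7.41 CPM (log2 difference -2.87 ± 0.48, adjusted p = 0.00447, -3.52 without NF1 2). Epha4 fell from 80.2, 31.7 and 92.4 to 0.29, 4.55 and 0.0341 CPM (log2 difference -5.39 ± 1.23, adjusted p = 0.0145, -8.61 without NF1 2), while Efnb2, a ligand of EphB receptors, measured 193, 198 and 199 against 237, 335 and 172 CPM (adjusted p = 0.389).

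The Notch pathway keeps neural stem cells undifferentiated. Of 19 members, 1 passed as higher, 6 passed as lower and 12 missed the threshold (5.26% higher and 31.6% lower), with a median of -1.10. Single libraries mattered, with the higher count at 3 without NSC 3 and the lower count at 12 without NF1 2. Lfng, a glycosyltransferase that modifies Notch, fell from 227, 266 and 185 to 34, 31.9 and 30.3 CPM (log2 difference -2.82 ± 0.20, adjusted p = 0.000163). The ligand gene Dll1 fell from 36.1, 28.5 and 28.8 to 0.203, 1.95 and 0.648 CPM (log2 difference -5.06 ± 0.78, adjusted p = 0.00327, -6.20 without NF1 2). Notch2 fell from 162, 92 and 176 to 42.5, 53.1 and 30.5 CPM (log2 difference -1.77 ± 0.30, adjusted p = 0.00485). Notch4 was the receptor that rose, from 2.44, 2.98 and 2.41 to 49.3, 83.8 and 26.2 CPM (log2 difference 4.34 ± 0.42, adjusted p = 0.000689). The target gene Hes5 measured 6.38, 7.53 and 7.11 CPM in NSC against 0.029, 4.8 and 0 CPM in NF1, near the NSC level in NF1 2 and near 0 in the others (adjusted p = 0.334).

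Of 29 BMP and TGF-beta genes 3 passed as higher, 12 passed as lower and 14 missed the threshold (10.3% higher and 41.4% lower), with a median of -0.60. Among fits lacking 1 library, the higher count was 1 without NSC 5. Bmpr1b, a BMP receptor, fell from 6.17, 11.3 and 6.68 to 0.174, 0.96 and 0.648 CPM (log2 difference -3.76 ± 0.61, adjusted p = 0.00383). The antagonist genes differed in direction: Grem1 rose, while Chrd (chordin) fell from 5, 2.6 and 5.18 to 0.493, 0.96 and 0.546 CPM (log2 difference -2.67 ± 0.46, adjusted p = 0.00493) and Nog (noggin) had 1 count over NF1 against 218 over NSC, a ratio of 158.8 with a counting interval from 28.2 to 6300 (fitted log2 difference -7.00, -9.01 without NF1 3). The target gene Id1 measured 81.1, 126 and 87.4 CPM in NSC against 81.5, 29.9 and 86.8 CPM in NF1 and did not pass (adjusted p = 0.307).

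Genes of antigen presentation by MHC class I molecules were called in both directions. Of 18 presentation genes, 4 passed as higher, 5 passed as lower and 9 missed the threshold (22.2% higher and 27.8% lower), with a median of -0.01. B2m, the common light chain of class I molecules, rose from 112, 88.5 and 110.5 to 374, 276 and 497 CPM (log2 difference 1.88 ± 0.26, adjusted p = 0.00209). H2-D1, a heavy chain gene with near-identical relatives, rose from 37.6, 29 and 37 to 147, 125 and 114 CPM (log2 difference 1.90 ± 0.27, adjusted p = 0.00236). Nlrc5, the transcriptional activator of class I genes, rose from 0.662, 0.505 and 0.804 to 7.97, 14.5 and 5.29 CPM (log2 difference 3.81 ± 0.52, adjusted p = 0.00206). On the processing side, the peptide transporter gene Tap1 fell from 10.2, 13.2 and 12.3 to 2.64, 1.5 and 1.47 CPM (log2 difference -2.67 ± 0.42, adjusted p = 0.00353). The trimming peptidase gene Erap1 fell from 41.1, 36.5 and 40.6 to 16.4, 14.3 and 13.9 CPM (log2 difference -1.41 ± 0.21, adjusted p = 0.00309). Of 19 interferon-stimulated genes 0 passed as higher, 6 passed as lower and 13 missed the threshold (31.6% lower). With 1 library left out, the lower count was 1 without NSC 1, 2 without NSC 5 or NF1 1 and 3 without NF1 3. Ifitm3, an antiviral membrane protein gene, fell from 131, 304 and 116 to 14.1, 27.3 and 27 CPM (log2 difference -3.01 ± 0.50, adjusted p = 0.00426, -2.35 without NSC 3).

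Glycolysis and hypoxia genes were higher in NF1 more often than lower. Of 24 tested, 8 passed as higher, 2 passed as lower and 14 missed the threshold (33.3% higher and 8.33% lower), with a median of 0.65. In fits without 1 library, the higher count was 4 without NSC 1 or NSC 5 and 5 without NF1 1 and the lower count was 1 without NSC 1, NSC 3, NSC 5, LTR 1, LTR 2, LTR 3 or NF1 1. Bnip3, a mitophagy receptor induced in hypoxia, rose from 40.1, 38.6 and 40.9 to 159.6, 88.9 and 146 CPM (log2 difference 1.72 ± 0.26, adjusted p = 0.00276). Pfkl, the liver-type phosphofructokinase, rose from 67.7, 79.7 and 79.9 to 235, 142 and 181 CPM (log2 difference 1.30 ± 0.21, adjusted p = 0.0042). The platelet-type isoform gene Pfkp fell from 115, 248 and 126 to 59.8, 66.7 and 43 CPM (log2 difference -1.53 ± 0.31, adjusted p = 0.00917). Aldoa, an aldolase, measured 857, 1228 and 827 against 1480, 1333 and 1605 CPM (adjusted p = 0.111). Of 19 cholesterol synthesis genes 1 passed as higher, 1 passed as lower and 17 missed the threshold (5.26% in each direction). On leaving libraries out, the higher count was 0 without NSC 1, NSC 5, LTR 3 or NF1 3, 2 without NSC 3 or LTR 2 and 3 without NF1 2 and the lower count was 0 without NSC 1, NSC 3 or NF1 1 and 2 without NF1 2. Cyp51, an enzyme of the pathway, measured 405, 559 and 388 against 506, 471 and 685 CPM (adjusted p = 0.408).

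Hox genes, which are silent in the forebrain, were detected at low levels in NF1. Of 39 listed, 29 had too few counts. The 10 others passed the filter on low counts through the tumour libraries alone, with at most a few counts in NSC, so no share of calls is read from them. Hoxa3 had no count in NSC and 3.65, 0.928 and 3.21 CPM in NF1, at least 113.9-fold above a floor of 3 counts over the NSC group. Hoxa4 had none in NSC and 4.52, 0.608 and 4.23 CPM in NF1, at least 136.8-fold above that floor. In both genes NF1 2 held the lowest NF1 level, and Hoxd10, at 4.87, 0 and 4.37 CPM, had no count in NF1 2 and was at least 135.5-fold above the NSC floor over the group, a call lost without NSC 1, NSC 3, NSC 5, LTR 3, NF1 1 or NF1 3. Members of a cluster and their antisense transcripts overlap here, and the kit does not mark strand.

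Imprinted genes, expressed from 1 parental allele, were lower more often than higher. Of 22 tested, 2 passed as higher, 7 passed as lower and 13 missed the threshold (9.09% higher and 31.8% lower), with a median of -1.32. Single libraries mattered, with the higher count at 0 without NSC 1, NSC 5 or NF1 1 and 1 without NSC 3, LTR 3 or NF1 3 and the lower count at 4 without NSC 1, NSC 5 or NF1 1 and 11 without NF1 2. Mest fell from 1209, 1390 and 1056 to 184, 81.5 and 134 CPM (log2 difference -3.19 ± 0.34, adjusted p = 0.001). Peg10 fell from 169, 88 and 227 to 15.2, 18.6 and 13.2 CPM (log2 difference -3.36 ± 0.35, adjusted p = 0.000986). Grb10, an adaptor that restrains insulin and IGF receptors, fell from 62, 32.9 and 68.8 to 0.0869, 0.032 and 0 CPM (log2 difference -10.24 ± 1.67, adjusted p = 0.00387, -11.40 without NF1 1). Nnat measured 133, 158 and 131 against 107, 250.3 and 126 CPM and did not pass (adjusted p = 0.707).

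Of 20 immediate early and heat shock genes, which respond to handling, 3 passed as higher, 1 passed as lower and 16 missed the threshold (15% higher and 5% lower). Among fits lacking 1 library, the higher count was 0 without NSC 1 and 7 without NSC 3 and the lower count was 0 without NSC 1, NSC 3, NSC 5, LTR 1, LTR 3, NF1 1 or NF1 3. The summed level was 2650, 5015 and 2696 CPM in NSC 1, 3 and 5 and 4493, 4041 and 4742 CPM in NF1 1, 2 and 3, so NSC 3 stood above NSC 1 and NSC 5. Of 10 mitochondrially encoded mRNAs none passed, and their sum was 15309, 10222 and 13146 CPM in NSC 1, 3 and 5 and 12525, 25378 and 23998 CPM in NF1 1, 2 and 3. That range overlaps between the groups. With 1 library left out, the higher count was 1 without NF1 1.

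**Figure D4:**
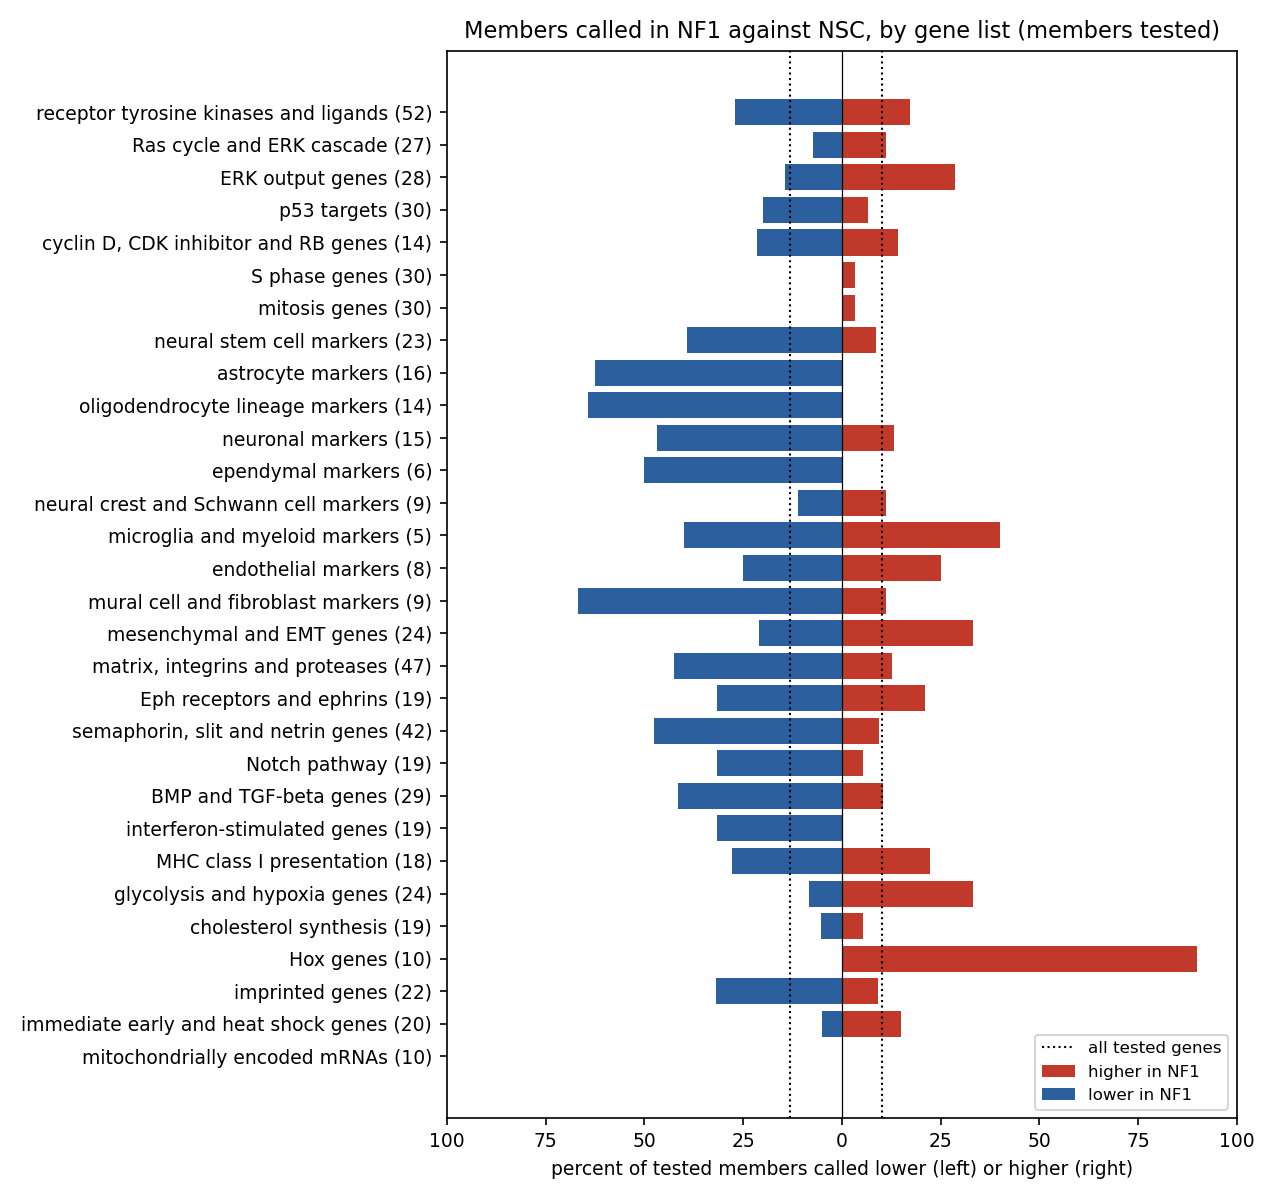
Share of the tested members of each gene list called higher (red, right) or lower (blue, left) in NF1, with the number tested in brackets. Dotted lines mark the 10.1% and 13.1% of all tested genes, and the marker lists of glia and of mural cells reach farthest to the left. The 10 Hox genes passed the filter on low counts through the tumour libraries alone.

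Position on the chromosomes was described for genes that reach 8 CPM, as the median log2 difference of each library from the NSC mean. Chromosome 10, which carries Cdk4, stood highest, at 0.44 in NF1 1, 0.06 in NF1 2 and 0.33 in NF1 3 over 518 genes. Chromosome 19 followed with 0.28, 0.05 and 0.24 over 374 genes, and chromosome 2 with 0.23, 0.01 and 0.15 over 856 genes. Over the 17 other chromosomes the medians ran from -0.10 to 0.10 in NF1 1, -0.10 to 0.08 in NF1 2 and -0.19 to 0.09 in NF1 3. NF1 2 thus had no chromosome above 0.08, and each NSC library stayed within 0.08 of its own group's mean. The LTR libraries also stood high on chromosome 10, at 0.50, 0.20 and 0.41.

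The shift on chromosome 10 ran along its whole length in NF1 1 and NF1 3. In steps of 20 Mb the 7 medians lay between 0.35 and 0.52 in NF1 1 and between 0.14 and 0.49 in NF1 3, from at least 39 genes each. NF1 2 lay between -0.02 and 0.20, highest in the last step (120 to 140 Mb, 79 genes), which holds Cdk4. On chromosome 19 the step from 20 to 40 Mb did not share the shift, at 0.00 in NF1 1 and -0.10 in NF1 3 over 68 genes, against 0.35 and 0.37 in the first 20 Mb over 186 genes. From 40 to 60 Mb (111 genes) and from 60 to 80 Mb (9 genes), NF1 1 was at 0.26 and 0.31. NF1 3 was at 0.04 and 0.07 there, so in NF1 3 the first 20 Mb alone stood high. DNA copy number was not measured in these files.

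**Figure D5:**
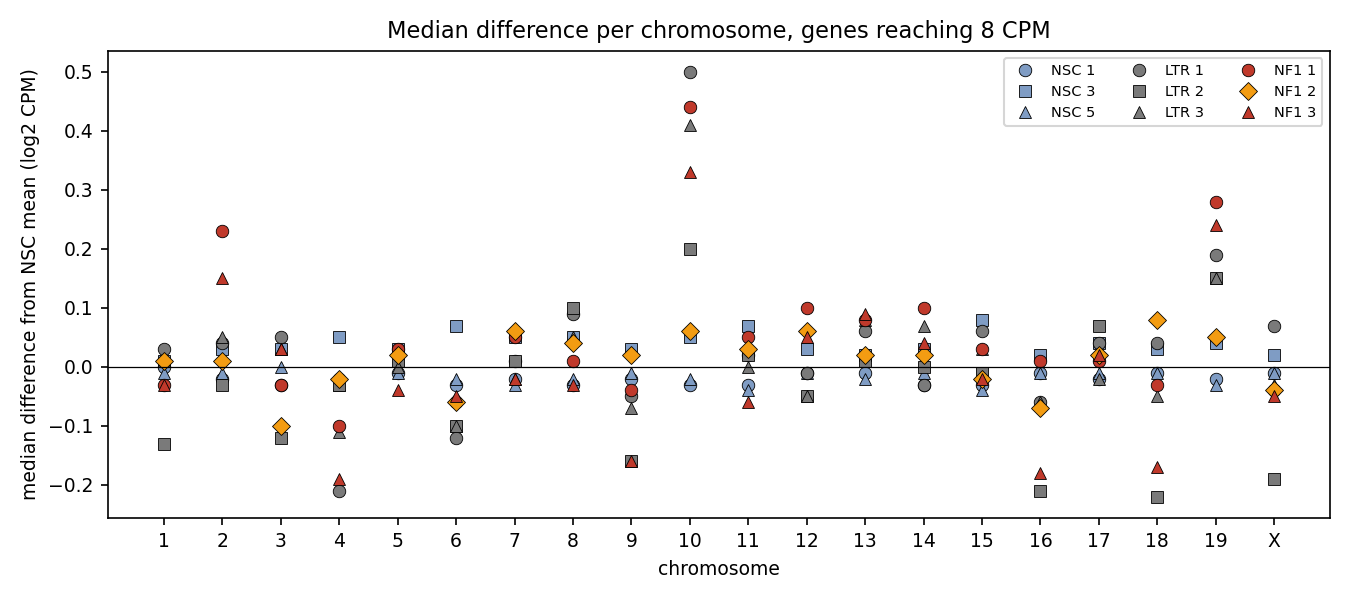
Median log2 CPM difference from the NSC mean per chromosome, over genes that reach 8 CPM, 1 point a library, in NSC (blue), LTR (grey) and NF1 (red, with NF1 2 in orange). NF1 1 and NF1 3 stand out on chromosomes 10, 19 and 2, and NF1 2 stays within 0.10 of 0 on every chromosome.

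The direct comparison of NF1 with the lgT/Ras tumour cells found no gene past the threshold. By edgeR 0 of 15696 genes (0%) passed, with 1596 at an unadjusted p under 0.05, and DESeq2 called 330 and limma-voom 1. Without NF1 2, edgeR called 34 genes. Values of both groups are therefore given side by side for a few genes. Areg measured 27.2, 70.8 and 43.1 CPM in LTR 1, 2 and 3 against 34.4, 36.3 and 53.8 in NF1, and Egfr 10.3, 6.71 and 9.97 against 2.23, 5.31 and 1.84 CPM. Calcb measured 0.623, 2.52 and 1.88 CPM in LTR and 29.8, 6.56 and 12.1 CPM in NF1, and Aqp1 7.44, 42.6 and 26 against 137, 35.8 and 132 CPM. For Calcb and Egfr the groups did not overlap, with Egfr higher and Calcb lower in LTR, but neither passed by edgeR. How many of all genes show no overlap between NF1 and LTR was not counted, so no difference is read from these 2. Grem1 was at 15.1, 34.7 and 27.3 CPM in LTR, so that among the 6 tumour libraries NF1 2 alone reached 1115 CPM.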

How the data were processed

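The deposited table holds raw read counts per gene, whole numbers that were not normalized. Per the submitters' processing notes, STAR 2.5.2a, HTSeq, DESeq2 1.8.2 and the builds GRCm38 and mm10 were used, and their roles are not given there. Per the labels' protocols, libraries were made with the NEBNext Ultra kit, which does not mark strand, so reads of overlapping genes cannot be told apart. Libraries were mapped to samples by the column names.

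Genes were filtered by filterByExpr (minimum count 10), scaled by TMM and fitted with edgeR 4.0.16 (R 4.3.3) in 1 model of 3 groups over 9 libraries. All p-values are from edgeR's quasi-likelihood test, adjusted by Benjamini-Hochberg over all 15696 genes, called at 0.05. Standard errors are the size of the log2 difference divided by the square root of F, and fitted differences use a prior count of 0.125. An exact permutation test of 3 against 3 cannot go below p = 0.1. The fits were tested on simulated counts. A gene that did not pass can still differ between the groups. Counting intervals are exact 95% intervals of summed counts, and intervals and floors (3 counts) cover counting error only. Alternatives were DESeq2 1.42.0, limma-voom (limma 3.58.1), other scalings and filters, fewer libraries and a replicate block.

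Gene positions are from GENCODE M21 (GRCm38), which held 47310 of 47729 identifiers. Promoters matched 10920 of 15696 tested genes (69.6%), fewer than 80% of them, so no check of promoter composition was made.

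The members and the 30 gene lists were chosen with earlier results of these data known. Named genes are those of the labels, the 12 largest changes a direction (at least 2-fold, at least 8 CPM, no overlap, called in each of the 9 fits without 1 library), the 5 largest differences in CPM, up to 3 members a direction of each list with its most abundant member that did not pass, and genes in which NF1 2 stood apart. Genes named outside this rule were chosen after their values were seen: C1qa, C1qb, C1qc, Ccnd2, Cd44, Cdkn1a, Cldn5, Cspg4, Cx3cr1, Dusp6, Fabp7, Fgfr1, Fn1, Gfap, Hbegf, Hes5, Hoxd10, Igf1r, Mki67, Myc, Nefm, Nes, Nfia, Notch2, Ntrk2, Pdgfrb, Ptprz1, Rasa3, Rgs5, Sox1, Sox2, Spred1, Spry2, Spry4, Tagln, Tgfa, Trem2, Tyrobp and Vtn. Some genes that meet the rule are not reported here.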

Additional observations from a re-analysis of the deposited data

How the results depend on the processing

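The 1578 higher and 2053 lower genes became 941 and 1162 with a filter of 10 CPM in 3 libraries, 3387 and 4098 with both NF1 2 and NSC 3 left out, and 373 and 860 when tested against a 2-fold change. These change the genes tested, the samples or the null, and other causes were not tested. Leaving out 1 library gave 598 to 2898 higher and 1085 to 4002 lower genes. DESeq2 called 2155 and 2748 genes, limma-voom 1588 and 2722, and the other scalings, robust estimation, the absent filter and the 6-library fit stayed within 1.5 times of the main counts. The labels do not say whether shared replicate numbers pair the samples. NF1 and NSC share 2 numbers, and deviations of these same-numbered libraries correlated at -0.08 and 0.04. With 3 libraries a group these values cannot settle pairing. With the replicate block 546 genes were higher and 1396 lower, so that 28.1% of the calls were higher against 43.5%, and with the test against 2-fold 30.3%. Between NF1 and LTR, 330 genes were called by DESeq2, 1 by limma-voom, 52 with no filter and 104 with both NF1 2 and NSC 3 left out, and 0 to 34 with 1 library left out. Of 134 named genes called, 96 to 134 kept the call under each alternative. One direction turned: Uty, a Y-linked gene read as a check of the cultures, was at -1.13 with both NF1 2 and NSC 3 left out. Without NF1 2 alone it was at -0.92, and the Y-linked Ddx3y and Kdm5d also moved, to -1.04 and -1.65. Low counts limit the Hox and myeloid genes, whose folds rest on few reads.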
